A study of Mus musculus with 96 samples.

Results

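Genes that mark Kupffer cells and other resident macrophages were followed in the liver and the pancreatic islets of mice fed a high-fat diet (HFD) or a chow diet (CD). The 10 members, Clec4f, Timd4, Vsig4, Marco, Cd5l, Cd163, Mrc1, Adgre1, Csf1r and C1qa, were taken by symbol from an expression table of 21990 genes, of which 20155 have values, and all 10 were found. Male C57BL/6N mice, 4 weeks old when bought, received CD with 13.5% fat (LabDiet 5001) or HFD with 60% fat (D12492 of Research Diets), and 4 mice per diet were taken at each of weeks 4, 8, 12, 16, 20 and 24. Each of the 48 mice gave 1 library of hand-picked islets and 1 of frozen liver, which makes 96 libraries in all. Which mice shared a library batch is not given in the labels. No genotype other than C57BL/6N and no drug is given for any group. The chow was not matched to the HFD in its ingredients, so that fat content and the other differences between the diets cannot be told apart. Levels are given in FPKM, fragments per kilobase of transcript scaled to the mapped fragments of a library, and differences as HFD minus CD on the log2(FPKM + 1) scale with their standard error (SE).

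Kupffer cells are the macrophages that live inside the liver sinusoids, where they take up particles, bacteria and dying cells from portal blood. They are seeded before birth, renew themselves in place, and can be replaced by monocytes from the blood that take on a similar set of genes. Clec4f, a lectin, is made by mouse Kupffer cells and hardly by other cells, and Timd4, a receptor for the phosphatidylserine of dying cells, marks the long-lived ones. Vsig4, a receptor for complement fragments, Marco, a class A scavenger receptor, and Cd163, the receptor for haptoglobin and haemoglobin, are uptake receptors, and Cd5l is a secreted protein of tissue macrophages. Mrc1, the mannose receptor, is shared with liver sinusoidal endothelial cells. Adgre1 (F4/80), Csf1r, which binds the growth factors Csf1 and Il34, and C1qa, a chain of complement C1q, are found in most tissue macrophages, those of the islets included.

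The total of all genes lay between 560016 and 672369 FPKM in liver and between 892097 and 1278652 FPKM in islets, where Ins1 and Ins2 together took 53.7% to 75.1% of it. The sequencing depth of each library is not used here, so the counting error behind single values is unknown, and values are given by the authors to 2 decimals. The tissue labels were borne out by markers, since each of the 6 hepatocyte genes tested was higher in liver and each of the 5 beta cell and 6 acinar genes was higher in islets of CD mice. Some liver libraries nevertheless held pancreatic transcripts, with insulin genes at up to 0.556% of total FPKM. In the islet libraries 6 of the 10 members stayed under 1 FPKM throughout. The values come from whole tissue, in which fewer cells of a type and less RNA per cell cannot be told apart.

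In liver the 10 genes spanned a wide range of levels. C1qa had the highest median over all 48 liver libraries, 38.2 FPKM, followed by Cd5l at 29.3 and Clec4f at 21.4 FPKM. Vsig4 (7.98 FPKM) and Csf1r (7.67 FPKM) had nearly the same median, as did Timd4 (1.44 FPKM) and Cd163 (1.37 FPKM), and Mrc1 (3.37 FPKM), Adgre1 (2.66 FPKM) and Marco (1.03 FPKM) completed the order. The ranges of neighbours in this order overlapped. Clec4f separated the tissues, with 10.6 to 37.81 FPKM in liver and at most 0.06 FPKM in islets, where it was listed at 0 in 37 of 48 libraries. Timd4 reached 0.45, Vsig4 0.16, Cd5l 0.69, Cd163 0.56 and Mrc1 0.98 FPKM in the islet library with the most, and Marco passed 1 FPKM in 1 islet library only, at 2.73 FPKM. Adgre1, Csf1r and C1qa had values above 1 FPKM in every islet library. In the 24 CD mice, Adgre1 was at 2.19 ± 0.796 FPKM in liver and 1.5 ± 0.213 FPKM in islets, Csf1r at 7.07 ± 2.62 and 4.75 ± 0.957 FPKM, and C1qa at 32.0 ± 12.2 and 38.5 ± 6.94 FPKM (mean ± SD, n = 24).

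**Figure D1:**
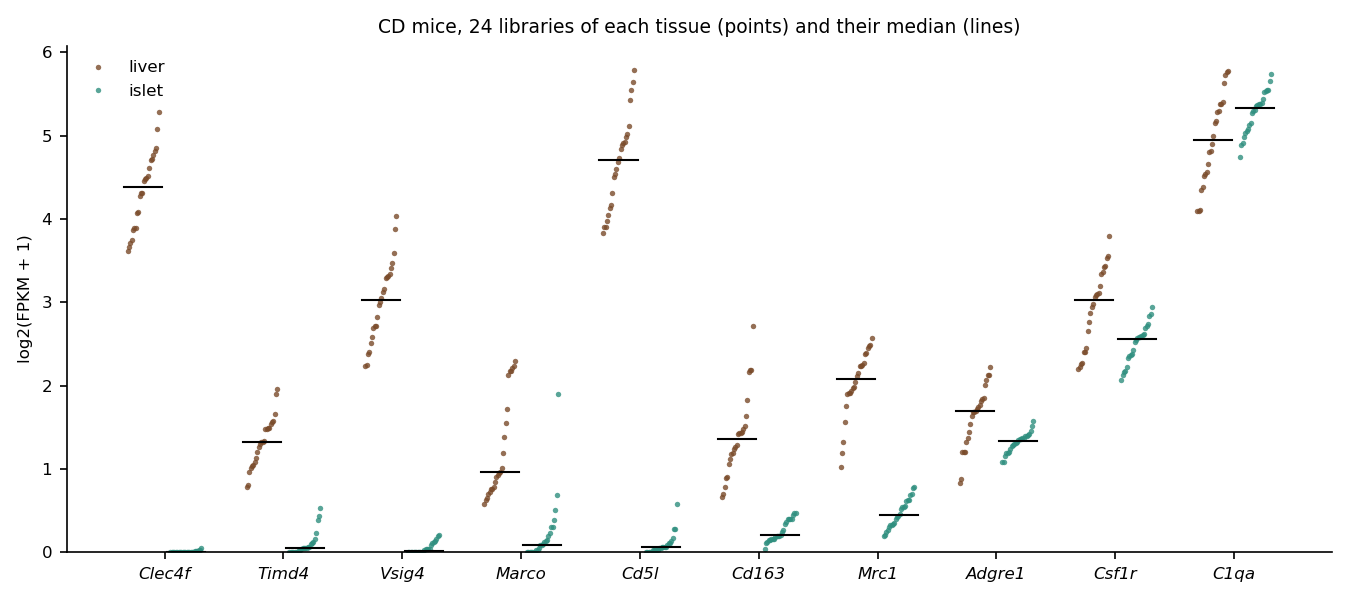
Levels of the 10 genes in CD mice as log2(FPKM + 1) (vertical axis), with 1 point for each of the 24 liver and 24 islet libraries and a line at the median. C1qa, Cd5l and Clec4f have the highest medians in liver, where Vsig4 lies near Csf1r. Clec4f, Vsig4 and Cd5l lie near 0 in islets, while Adgre1, Csf1r and C1qa overlap between the tissues.

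Compared with islets, 9 of the 10 genes were higher in liver of CD mice and C1qa was lower (limma with Benjamini-Hochberg adjustment), where 28.5% of 13074 genes were higher and 66.9% lower, and the median of all genes was -0.66. Cd5l differed by 4.59 ± 0.084 (SE), Clec4f by 4.34 ± 0.073 and Vsig4 by 2.96 ± 0.061 on the log2 scale, with adjusted p-values of 2.4e-38, 4e-40 and 4e-37 by limma. Smaller differences were found for Mrc1 (1.55 ± 0.063), Timd4 (1.22 ± 0.056), Cd163 (1.14 ± 0.068) and Marco (1.04 ± 0.11). All of these but Marco stayed under 1 FPKM in every islet library, and Marco reached 1 FPKM in 1. These genes thus passed the filter on low values through liver, which fixed their direction. With a pseudocount of 1 the size of their difference follows the liver level. Their p-values and their order are therefore no test of the tissues. For Adgre1 and Csf1r the direction turned with the scale. Adgre1 (0.31 ± 0.064) and Csf1r (0.43 ± 0.088) were higher in liver by FPKM as deposited, but lower by -0.21 and -0.25 once insulin was left out of the islet total, which moved the median of all genes to -1.26. C1qa was at -0.33 ± 0.081 by FPKM as deposited and at 0.41 under median-ratio scaling, which moved the median to -0.09 and the share of higher genes among those called from 29.8% to 47.3%.

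In liver the genes common to most macrophages were higher on HFD, while the Kupffer cell genes did not move as one. Averaged over the 6 weeks, 5 of the 10 genes were higher on HFD, namely Adgre1, Cd5l, Csf1r, C1qa and Vsig4, and Cd163 was lower. Clec4f, Marco, Mrc1 and Timd4 did not pass the test. The liver as a whole also leaned this way: 35.8% of the 10879 genes tested were higher and 6.78% lower. Under median-ratio scaling 1943 genes were higher and 2332 lower, against 3892 and 738 by FPKM as deposited. On that scale the 10 genes had 4 higher and 1 lower, without Vsig4. The median difference of the 10 genes was 0.25, and that of all genes tested was 0.08.

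Adgre1 had the highest mean effect of the 10, 0.66 ± 0.11 (SE, adjusted p = 6.2e-06), with 2.19 ± 0.796 FPKM on CD and 4.23 ± 2.18 FPKM on HFD (SD, n = 24). At week 20 the CD livers were at 2.29, 2.42, 2.6 and 3.19 FPKM and the HFD livers at 5.01, 5.6, 6.0 and 8.7 FPKM. The HFD livers were thus all above the CD livers, on average 2.42-fold, with a difference of 1.00 ± 0.16 (adjusted p = 0.014). At week 12 the CD livers were at 1.3, 1.73, 1.92 and 2.34 FPKM and the HFD livers at 3.24, 3.25, 3.34 and 10.94 FPKM. These groups did not overlap either, but the difference of 0.98 ± 0.33 did not pass the test (adjusted p = 0.088) with the library of mouse HFD315, which held the 10.94 FPKM, and passed without it (0.61 ± 0.13, adjusted p = 0.042). At week 24 the CD livers (2.22, 3.38, 3.39 and 3.67 FPKM) and the HFD livers (2.59, 3.56, 4.63 and 6.6 FPKM) overlapped, and at week 8 the difference was 0.03 ± 0.19. The week 20 call was kept whichever of the 8 mice was left out, with differences from 0.85 to 1.08.

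Csf1r and C1qa were also higher on HFD in the mean of the weeks, C1qa passing at weeks 12 and 20 and Csf1r in no single week. The mean effect was 0.48 ± 0.11 for Csf1r (adjusted p = 0.00085) and 0.44 ± 0.11 for C1qa (adjusted p = 0.0016). For C1qa at week 20, 38.4, 40.69, 40.74 and 41.34 FPKM on CD stood against 57.49, 59.17, 60.56 and 75.17 FPKM on HFD, a difference of 0.63 ± 0.11 (adjusted p = 0.018). At week 12 the values were 21.84, 24.27, 26.85 and 28.9 FPKM on CD and 31.65, 38.71, 41.81 and 65.11 FPKM on HFD (0.73 ± 0.19, adjusted p = 0.043). The groups were apart in both weeks, but the week 12 call was lost under median-ratio scaling (0.58, adjusted p = 0.091) and in the 7 fits without 1 mouse other than that without HFD313 (0.53 to 0.79), and the week 20 call was lost without any 1 of the 4 CD mice (0.60 without CD501, adjusted p = 0.063). Csf1r at week 20 was at 7.59, 7.68, 9.29 and 9.75 FPKM on CD and 10.8, 13.79, 16.13 and 19.91 FPKM on HFD, and although the groups were apart the difference of 0.73 ± 0.17 missed the threshold (adjusted p = 0.054), and passed it without HFD518 (0.87, adjusted p = 0.014). At week 24, C1qa differed by 0.01 ± 0.21 and Csf1r by 0.10 ± 0.23, and both groups overlapped.

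The secreted Cd5l had a mean effect of 0.58 ± 0.14 (adjusted p = 0.00076), from 26.8 ± 11.5 FPKM on CD to 40.8 ± 17.3 FPKM on HFD (SD, n = 24). At week 20 the CD livers were at 27.54, 30.74, 33.76 and 41.97 FPKM and the HFD livers at 44.55, 56.63, 57.26 and 73.11 FPKM, with a difference of 0.77 ± 0.17 (adjusted p = 0.044). The groups were apart, yet the call was lost under median-ratio scaling (0.66, adjusted p = 0.099) and without CD501, CD502, CD505, HFD516 or HFD517 (0.65 to 0.78). By week 24 the groups overlapped, with 29.13 to 54.43 FPKM on CD and 18.15 to 65.49 FPKM on HFD. Vsig4 had a mean effect of 0.26 ± 0.096 (adjusted p = 0.026) and was called in no single week. It was at 3.71, 3.76, 5.02 and 5.47 FPKM on CD and 7.81, 8.02, 11.6 and 11.62 FPKM on HFD at week 4, with no overlap (0.96 ± 0.17, adjusted p = 0.077). At week 24 it was at 7.94, 10.1, 13.68 and 15.43 FPKM on CD and 4.35, 6.0, 8.04 and 12.32 FPKM on HFD (-0.60 ± 0.28, adjusted p = 0.35), and the groups overlapped. Its differences were 0.64 at week 12 and 0.39 at week 20, both without overlap, and -0.20 at week 8 and 0.37 at week 16, both with overlap. The call for Vsig4 was lost under median-ratio scaling (0.16, adjusted p = 0.17) and without week 4 (0.12, adjusted p = 0.39).

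**Figure D2:**
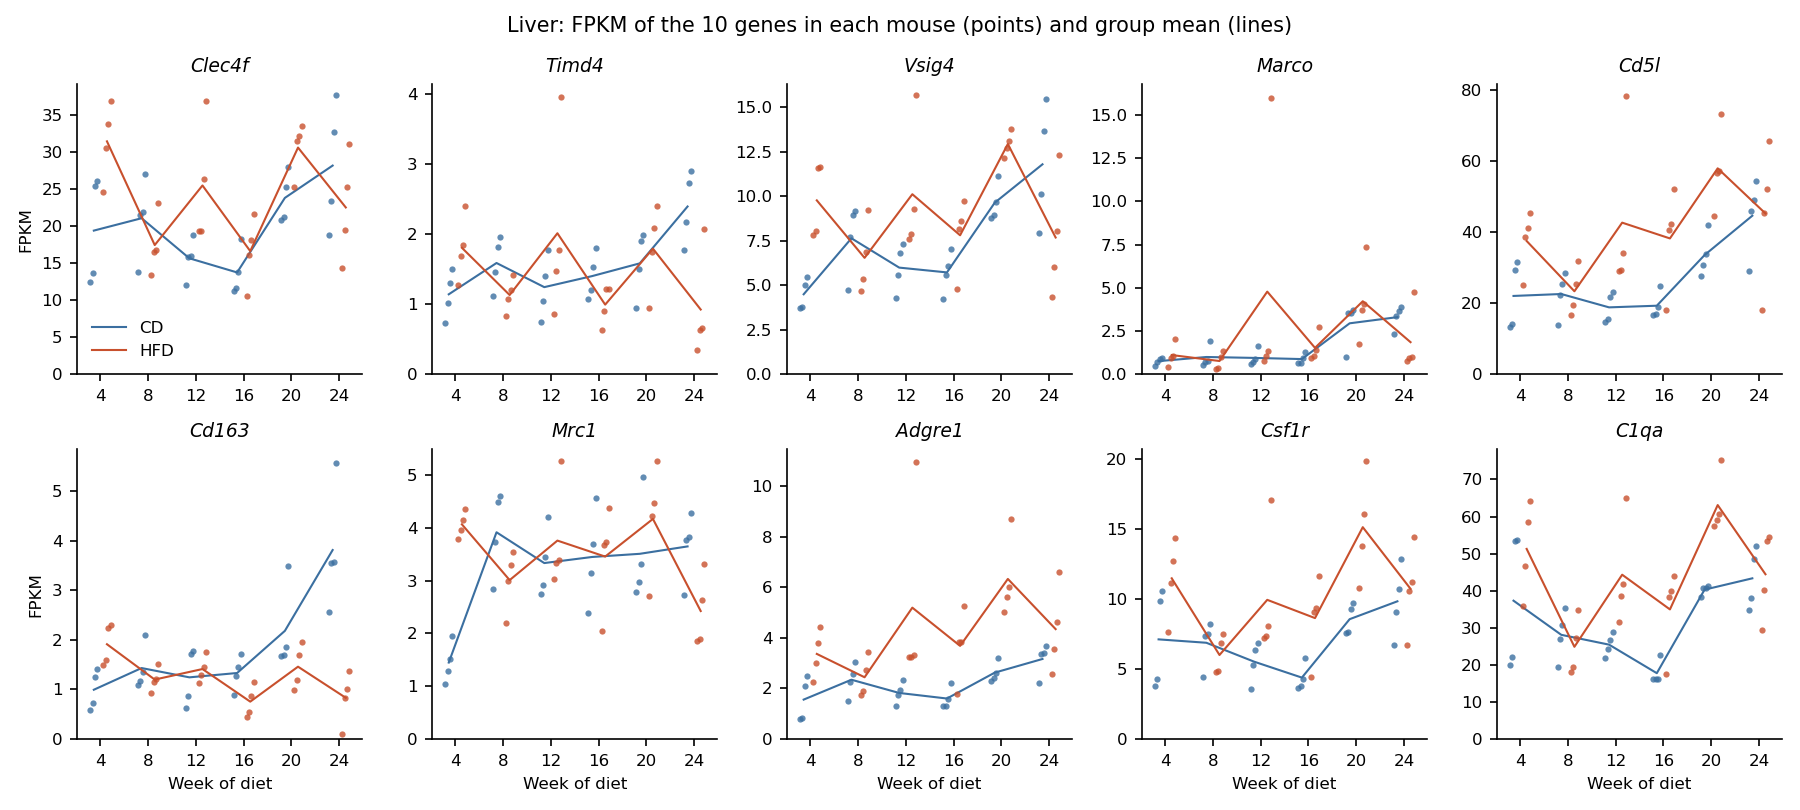
FPKM of the 10 genes in liver (vertical axes) by week of diet, with 1 point for each mouse and lines through the means of the 4 mice per group, CD in blue and HFD in red. Adgre1 is higher on HFD at weeks 12 and 20 with no overlap, Mrc1 only at week 4, and Cd163 is lower at week 24, at 0.11 to 1.37 FPKM on HFD against 2.56 to 5.57 FPKM on CD.

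Cd163 was the gene of the 10 that went the other way. At week 24 the CD livers were at 2.56, 3.55, 3.57 and 5.57 FPKM and the HFD livers at 0.11, 0.83, 1.02 and 1.37 FPKM. All 4 HFD livers were below all 4 CD livers, on average 4.57-fold, and the difference was -1.41 ± 0.25 (adjusted p = 0.032), in a week when 0.837% of genes tested passed in either direction. At week 4 the order was the opposite, with 0.59, 0.72, 1.26 and 1.41 FPKM on CD and 1.5, 1.6, 2.25 and 2.3 FPKM on HFD, again with no overlap but not past the threshold (0.56 ± 0.17, adjusted p = 0.23). In between, the groups overlapped, and the differences at weeks 8, 12, 16 and 20 were -0.13, 0.14, -0.42 and -0.35. The effect in weeks 16, 20 and 24 was lower than that in weeks 4, 8 and 12 by -0.91 ± 0.17 (adjusted p = 0.0044). Only 0.175% of 10879 genes passed this test of late against early weeks in either direction, and Cd163 was the only one of the 10 genes to do so. The mean effect of Cd163 was -0.27 ± 0.083 (adjusted p = 0.0082).

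These calls for Cd163 rest on week 24. Without that week its mean effect was -0.04 (adjusted p = 0.71) and its late minus early difference -0.57 (adjusted p = 0.23), and without week 4 the latter was -0.73 (adjusted p = 0.32). The week 24 call itself was lost with a pseudocount of 0.1 (-2.32, adjusted p = 0.1), with no filter on low values (adjusted p = 0.064), and in 5 of 8 fits that left out 1 mouse, those without CD601, CD605, CD608, HFD616 or HFD617, with a range of -1.55 to -1.19 over the 8. It passed when all 12 groups were fitted together (adjusted p = 2.8e-05), a fit in which 4 of the 8 single-week calls of both tissues were lost.

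Timd4 and Marco were near Cd163 in level and in their values at week 24. Timd4 was at 1.78, 2.17, 2.74 and 2.9 FPKM on CD and 0.34, 0.63, 0.66 and 2.07 FPKM on HFD (-0.88 ± 0.23, adjusted p = 0.12). For Marco the values were 2.3, 3.36, 3.65 and 3.9 FPKM on CD and 0.74, 0.93, 0.99 and 4.76 FPKM on HFD (-0.77 ± 0.35, adjusted p = 0.34). In both genes 3 HFD livers lay below every CD liver and the library of mouse HFD616 lay among or above them. Without that mouse the difference was -1.13 ± 0.15 for Timd4 (adjusted p = 0.021) and -1.18 ± 0.15 for Marco (adjusted p = 0.019). Over the 6 weeks, Timd4 had a mean effect of -0.10 ± 0.089 (adjusted p = 0.39) and Marco one of 0.15 ± 0.18 (adjusted p = 0.53). The late minus early difference of Timd4, -0.50 ± 0.18, had an unadjusted p of 0.0074 and did not pass after adjustment (adjusted p = 0.38).

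Clec4f, the most specific of the 10, showed no called change in any week. At week 20 it was at 20.88, 21.28, 25.25 and 27.96 FPKM on CD and 25.29, 31.57, 32.17 and 33.55 FPKM on HFD, and at week 24 at 18.85, 23.44, 32.74 and 37.81 FPKM on CD and 14.36, 19.46, 25.27 and 31.11 FPKM on HFD. The groups overlapped in both weeks and were apart only at week 12, with 12.07, 15.81, 16.0 and 18.82 FPKM on CD and 19.31, 19.38, 26.42 and 36.98 FPKM on HFD (0.64 ± 0.21, adjusted p = 0.076). Its mean effect was 0.23 ± 0.10 (adjusted p = 0.06), and without week 24 it passed the threshold at 0.34 ± 0.10 (adjusted p = 0.0087).

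Among single weeks, Mrc1 rose at week 4. The CD livers were at 1.04, 1.29, 1.51 and 1.95 FPKM and the HFD livers at 3.78, 3.96, 4.15 and 4.36 FPKM, a 2.80-fold difference in means with no overlap (1.06 ± 0.12, adjusted p = 0.038). In that week 0.0506% of genes tested passed in either direction. From week 8 on the CD livers were at 2.38 to 4.95 FPKM, so that the week 4 CD livers lay below all later CD livers and the week 4 HFD livers lay among them. The 9 sinusoidal endothelial genes, of a cell type that also makes Mrc1, summed to a lowest of 32.4 and a median of 60.9 FPKM in these CD livers, and a lowest of 83.9 and a median of 107.0 FPKM in the HFD livers. The highest CD sum lay above the lowest HFD sum, so the groups overlapped, none of the 9 genes was called, and their part in the result was not tested. The week 4 call was lost with a pseudocount of 0.1 (adjusted p = 0.055), with no filter (adjusted p = 0.09) and under median-ratio scaling (0.97, adjusted p = 0.052), and in 6 of 8 fits without 1 mouse, all but those without CD101 or CD104 (0.98 to 1.15 over the 8). Without week 4 the mean effect of Mrc1 turned from 0.11 to -0.09, neither past the threshold.

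**Figure D3:**
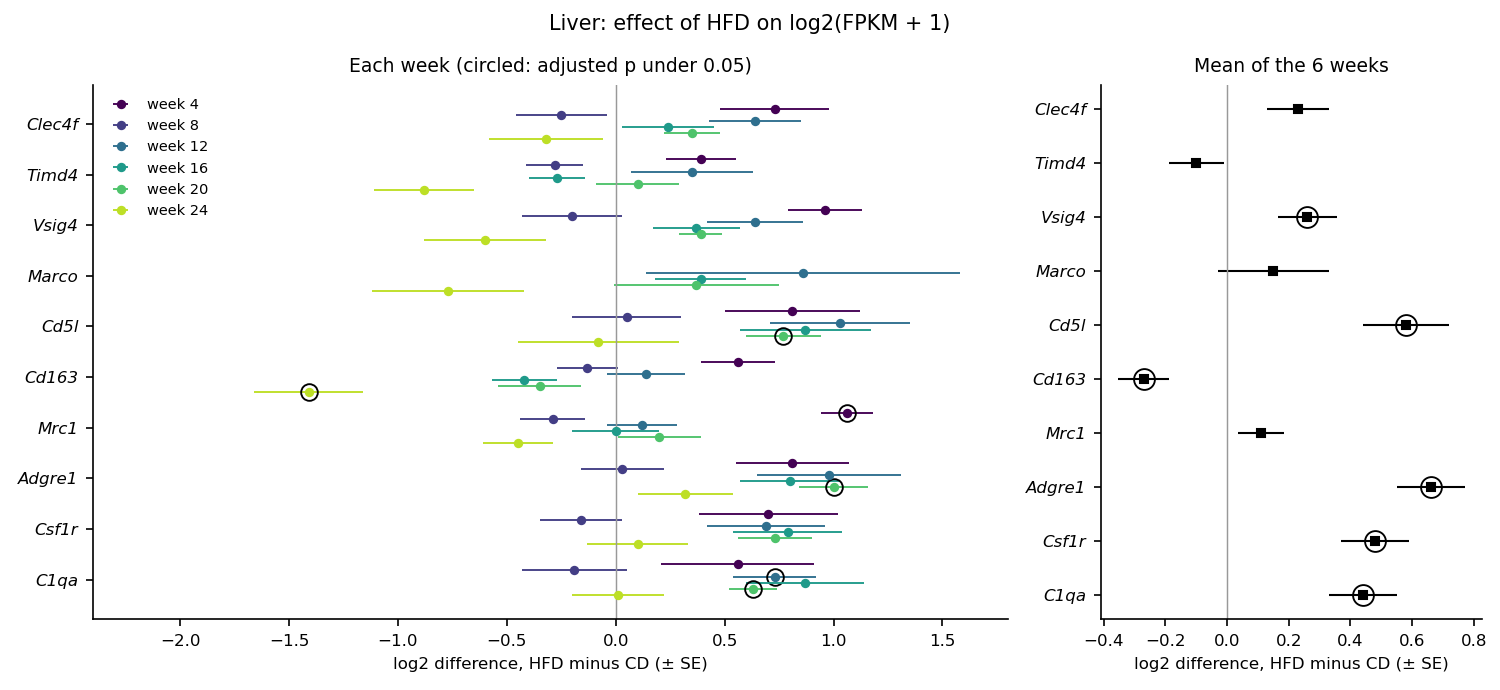
Differences between HFD and CD in liver on the log2(FPKM + 1) scale (horizontal axes) with their SE, for each week (left, coloured by week) and as the mean of the 6 weeks (right); circles mark an adjusted p under 0.05. Marco has no point at weeks 4 and 8, where it was too low to be tested. Adgre1, Cd5l, Csf1r and C1qa lie to the right at weeks 12 to 20, and Cd163 lies furthest left at week 24, at -1.41.

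Week by week, the 10 genes were apart between the diets in an uneven way. All 4 HFD livers were above all 4 CD livers for 3 genes at week 4, 6 at week 12, 5 at week 20 and none at weeks 8, 16 and 24, where 5.85%, 14.6%, 6.58%, 11.4%, 11.9% and 8.14% of genes tested did so. Cd163 at week 24 was the only one with all HFD livers below, as in 1.92% of genes, against 2.03%, 3.69%, 3.49%, 1.97% and 2.51% in weeks 4 to 20, when none of the 10 was. In the tests of single weeks, 6 of 58 comparisons passed, 1 each at weeks 4, 12 and 24 and 3 at week 20, where 0.0506%, 10.6%, 0.837% and 2.47% of all genes passed in either direction. No gene of the 10 passed at week 8, when 7.49% of genes did, or at week 16, when 7.43% did. The week 16 result depended on 1 mouse, HFD411, whose liver had the lowest HFD value for 8 of the 10 genes, such as 17.54 FPKM of C1qa against 38.39, 39.95 and 43.96 FPKM in the other HFD livers and 16.07 to 22.67 FPKM on CD. Without it 5 genes passed at week 16, Cd5l (1.19 ± 0.15), C1qa (1.17 ± 0.13), Csf1r (1.04 ± 0.15), Adgre1 (1.03 ± 0.15) and Vsig4 (0.56 ± 0.14), with adjusted p-values from 0.0011 to 0.033. The share of all genes that passed in the fit without HFD411 is not given. These 5 calls therefore cannot be set against the 7.43% of the full fit.

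Other libraries also stood apart. At week 4 the CD livers of mice CD101 and CD106 were the lower ones of their group for all 10 genes, with 22.22 and 19.92 FPKM of C1qa and 4.3 and 3.79 FPKM of Csf1r, where CD103 and CD104 had 53.66 and 53.47 FPKM of C1qa and 10.57 and 9.87 FPKM of Csf1r. At week 12 the HFD liver of HFD315 was the highest of its group for 9 of the 10 genes, with 15.97 FPKM of Marco against 0.74, 1.04 and 1.36 FPKM in the others and 78.2 FPKM of Cd5l against 29.04, 29.17 and 34.05 FPKM. Cd163 was the exception, at 1.46 FPKM within a group of 1.14 to 1.75 FPKM. At week 24 HFD616 was the highest HFD liver for all 10. Leaving out any 1 liver library changed none of the 6 calls of the mean effect, and Clec4f came to pass in 11 of the 48 fits.

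The genes shifted against each other within the same libraries. Ratios of FPKM between genes of one library do not depend on its total, but those given here were chosen after their values were seen and carry no test. The ratio of Timd4 to Adgre1 was 0.522 to 1.21 on CD and 0.444 to 0.619 on HFD in week 4, while week 16 gave 0.819 to 0.956 against 0.12 to 0.506 and week 24 gave 0.642 to 0.808 against 0.0734 to 0.314. The ratio of Cd163 to Csf1r was 0.128 to 0.19 on CD and 0.125 to 0.206 on HFD at week 4, 0.24 to 0.336 against 0.0462 to 0.127 at week 16, 0.191 to 0.376 against 0.0492 to 0.181 at week 20, and 0.331 to 0.432 against 0.0104 to 0.152 at week 24. The diets were apart at weeks 12, 16 and 24 for Timd4 to Adgre1 and overlapped at weeks 4, 8 and 20 (0.365 to 0.83 on CD and 0.108 to 0.479 on HFD at week 20), and for Cd163 to Csf1r they were apart at weeks 16, 20 and 24 and overlapped at weeks 4, 8 and 12. For Clec4f to Adgre1 the CD livers were at 8.3 to 9.0 and the HFD livers at 3.46 to 5.89 at week 16, and at 6.93 to 10.3 and 4.71 to 5.54 at week 24, with no overlap at weeks 16, 20 and 24 and with overlap at weeks 4, 8 and 12. By contrast, Cd5l to Clec4f was higher on HFD at week 16, 1.69 to 2.87 against 1.35 to 1.51, and at week 8, 1.18 to 1.51 against 1.01 to 1.16, and overlapped in the other 4 weeks, as with 1.26 to 2.32 against 1.44 to 1.96 at week 24. The highest HFD ratio of Timd4 to Adgre1 at week 16, 0.506, was that of mouse HFD411 and lay below every CD liver.

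**Figure D4:**
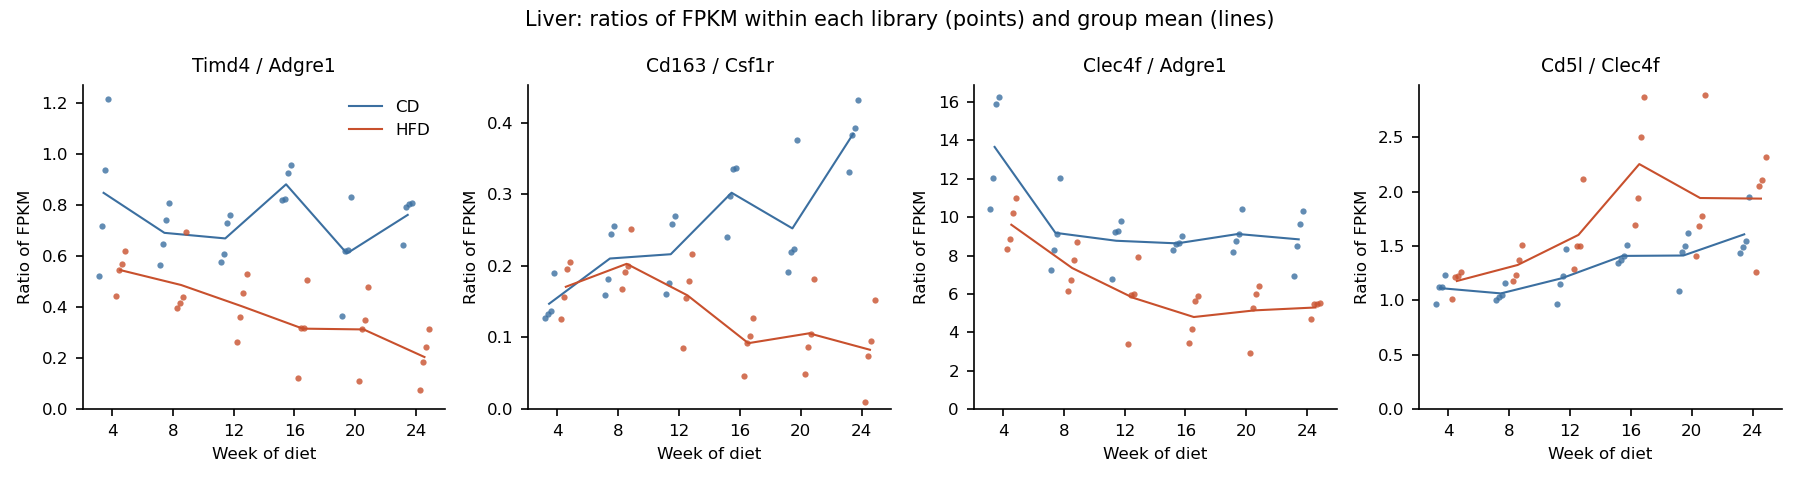
Ratios of FPKM of gene pairs within each liver library (vertical axes, no unit) by week of diet, with 1 point for each mouse and lines through the means of 4 mice. For Cd163 to Csf1r the diets share a range at week 4 and are apart at weeks 16, 20 and 24; at week 24 HFD lies at 0.0104 to 0.152 and CD at 0.331 to 0.432.

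Of the genes called in the mean effect, the 3 with a promoter in the RefSeq table are shown by the letters before their start, because Cd5l and Vsig4 were higher and Cd163 lower on HFD in the mean effect. The windows are from GRCm38.p6, read 5′ to 3′ on the strand of the gene. Vsig4 is on the minus strand at chrX:96293439-96293688, Cd5l on the plus strand at chr3:87357631-87357880 and Cd163 on the plus strand at chr6:124304401-124304629, where the 229 letters end before the earliest annotated start of the gene. Capitals mark GAGGAA, the core bound by the myeloid factor PU.1, and TGCTGA, a short element bound by MAF factors, on either strand (TTCCTC and TCAGCA when reversed).
Vsig4: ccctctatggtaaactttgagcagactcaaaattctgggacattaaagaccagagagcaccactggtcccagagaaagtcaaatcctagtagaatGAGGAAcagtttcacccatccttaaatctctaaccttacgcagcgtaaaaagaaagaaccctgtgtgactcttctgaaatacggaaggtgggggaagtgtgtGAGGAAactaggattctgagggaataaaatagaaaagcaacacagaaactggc
Cd5l: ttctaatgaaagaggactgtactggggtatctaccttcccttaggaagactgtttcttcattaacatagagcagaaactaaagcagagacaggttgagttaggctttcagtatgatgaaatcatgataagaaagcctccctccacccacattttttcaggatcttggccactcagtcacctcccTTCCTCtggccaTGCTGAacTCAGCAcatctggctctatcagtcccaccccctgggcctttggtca
Cd163: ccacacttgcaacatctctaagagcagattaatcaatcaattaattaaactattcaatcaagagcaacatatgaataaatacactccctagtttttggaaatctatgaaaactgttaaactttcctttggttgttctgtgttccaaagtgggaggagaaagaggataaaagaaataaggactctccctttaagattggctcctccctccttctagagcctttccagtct
Within 250 bases before the start, Vsig4 held GAGGAA at 2 places and TGCTGA at none, Cd5l held 1 and 2, and Cd163 held neither. Of all 32851 promoter windows of this length, 23.3% held the first motif and 16.1% the second on either strand, and 3.68% held both, as Cd5l did. Of the other genes in the table, Mrc1 held GAGGAA at 3 places, Marco at 1, Timd4 held TGCTGA at 2 and Clec4f at 1. A match is a description of letters and no evidence of binding.

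In CD mice, 7 of the 10 genes were higher in liver at week 24 than at week 4, and none was lower, where 22% of genes tested were higher and 14.8% lower. The 7 were Marco (1.28 ± 0.44), Cd163 (1.26 ± 0.20), Vsig4 (1.19 ± 0.23), Cd5l (1.05 ± 0.33), Mrc1 (0.93 ± 0.18), Adgre1 (0.75 ± 0.27) and Timd4 (0.67 ± 0.22), with adjusted p-values from 2.3e-05 for Cd163 to 0.025 for Adgre1. For Cd163 this was a rise from 0.59 to 1.41 FPKM at week 4 to 2.56 to 5.57 FPKM at week 24, with no overlap. Clec4f (0.54 ± 0.25, adjusted p = 0.08), Csf1r (0.50 ± 0.28, adjusted p = 0.16) and C1qa (0.34 ± 0.27, adjusted p = 0.34) did not pass. Under median-ratio scaling 1978 of all genes were higher and 2359 lower, against 2390 and 1607, and 7 of the 10 genes passed. Leaving out 1 library left 5 to 8 genes, as Adgre1 was lost without CD101, CD106, CD601, CD605 or CD608 (0.60 to 0.72), Cd5l without CD101 (adjusted p = 0.051), Marco without CD606 (adjusted p = 0.054) and Timd4 without CD608 (adjusted p = 0.05). Age, time on the diet and any batch of collection go together in this comparison and cannot be told apart, and it shares its week 24 livers with the comparison of Cd163 above.

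In islets, Adgre1, Csf1r and C1qa were the 3 members that passed the filter on low values, and the other 7 were too low to test. Adgre1 had a mean effect of HFD of 0.22 ± 0.048 (adjusted p = 0.00029) and C1qa one of 0.25 ± 0.068 (adjusted p = 0.0032), whereas Csf1r was at -0.04 ± 0.07 (adjusted p = 0.67). Of 12378 genes, 16.6% were higher and 22% lower, with a median of -0.01. With insulin left out of the total 4437 genes were higher and 1287 lower, and under median-ratio scaling 3552 and 2416, against 2060 and 2722 by FPKM as deposited. Adgre1 and C1qa passed on all 3 scales, and Csf1r turned to 0.03 with insulin left out.

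At week 16, Adgre1 was at 1.44, 1.57, 1.64 and 1.66 FPKM in CD islets and 1.95, 2.32, 2.33 and 2.71 FPKM in HFD islets (0.36 ± 0.089, adjusted p = 0.02). At week 20 the values were 1.3, 1.54, 1.58 and 1.75 FPKM against 1.79, 1.81, 2.79 and 2.83 FPKM (0.36 ± 0.12, adjusted p = 0.1). HFD islets were above CD islets in both weeks, and the call of week 16 was lost without CD403, HFD411 or HFD416 (0.31 to 0.36). C1qa passed at week 12, with 38.37, 45.1, 45.74 and 52.39 FPKM in CD islets and 51.45, 53.2, 69.72 and 75.11 FPKM in HFD islets (0.44 ± 0.12, adjusted p = 0.045), although these groups overlapped. The tests of single weeks thus passed in 2 of 18 cases, against 5.27%, 4.53%, 8.45%, 4.74% and 8.3% of all genes at weeks 8 to 24. At week 4 limma called 0% of genes, with 854 at an unadjusted p under 0.05. The week 12 call for C1qa was lost without CD304, CD307, CD308, HFD315 or HFD318 (0.34 to 0.45), with no filter (adjusted p = 0.13), without a variance trend (adjusted p = 0.094) and with all 12 groups in one fit (adjusted p = 0.082). Csf1r was at 3.5, 3.52, 4.04 and 5.02 FPKM in CD islets and 2.44, 2.64, 3.02 and 3.28 FPKM in HFD islets at week 8, apart between the diets but not past the threshold (-0.38 ± 0.11, adjusted p = 0.064). None of the 3 genes passed for age on CD, where 31.6% of all genes did, or for late against early weeks of HFD, where 3.16% did. At an unadjusted p under 0.05, limma left only C1qa with age (-0.41, adjusted p = 0.055).

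Among the genes tested in islets, the diets were apart in few weeks. HFD islets were all above CD islets for C1qa at week 4 and Adgre1 at weeks 16 and 20, and all below for Csf1r at week 8. Cd163 was not tested in islets, where it stayed under 1 FPKM in every library. At week 16 its HFD islets were nevertheless all below its CD islets (0.07 to 0.14 against 0.15 to 0.32 FPKM). The same held at week 20 (0.03 to 0.09 against 0.11 to 0.27 FPKM). The gap at week 16 is the smallest step of FPKM with 2 decimals. The shares that follow cover genes tested only, so none is given for genes as low as Cd163. Over all genes tested, 1.5%, 1.43%, 6.91%, 6.64%, 4.84% and 13.7% were above, and 2.72%, 15.8%, 3.47%, 8.77%, 9.76% and 2.41% below, in weeks 4 to 24 in order. In ratios, Csf1r to Adgre1 was lower on HFD without overlap at weeks 4 (1.67 to 3.46 against 3.47 to 3.8), 8 (1.89 to 2.12 against 2.54 to 2.95), 12, 16 and 24 (2.04 to 2.63 against 2.8 to 3.71) and overlapped at week 20. The gap at week 4 is no wider than the rounding of FPKM to 2 decimals could give. The other islet ratio taken, C1qa to Adgre1, was lower on HFD without overlap at week 20 only (20.8 to 22.1 against 22.4 to 32.6). It overlapped in all other weeks, and neither ratio carries a test. The acinar genes summed to 2492 to 75529 FPKM over the islet libraries, and the part of this exocrine share in the islet values was not tested.

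**Figure D5:**
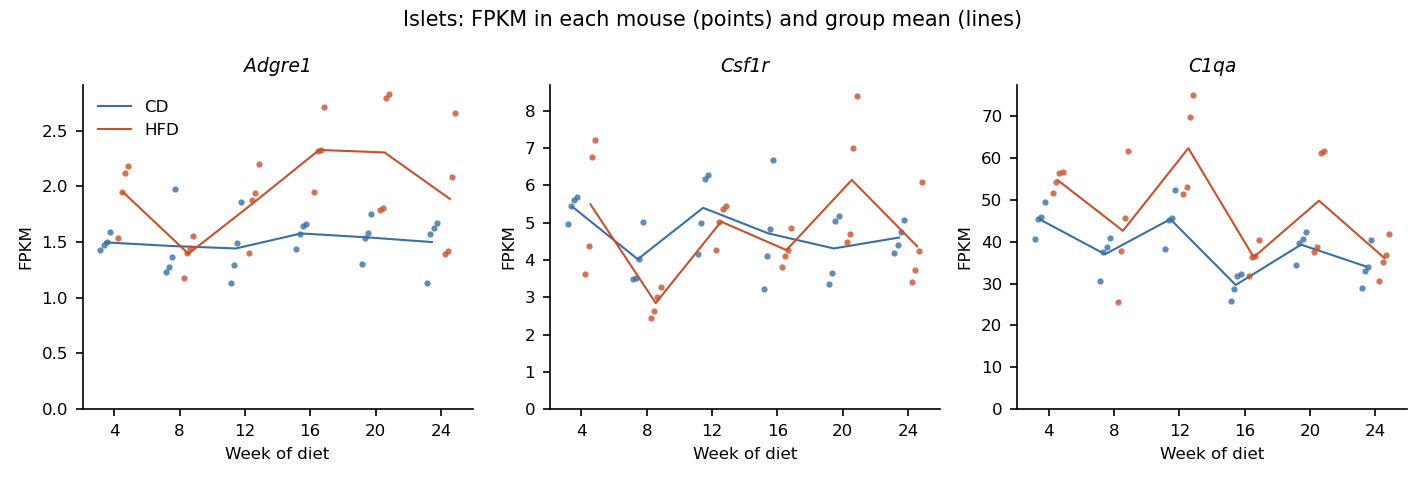
FPKM of the 3 genes tested in islets (vertical axes) by week of diet, with 1 point for each mouse and lines through the means of 4 mice per group. Adgre1 lies higher on HFD at weeks 16 and 20 with no overlap, while the means of Csf1r cross between weeks.

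Of the 3 genes that passed the filter on low values in both tissues, the effect of HFD was larger in liver than in islets for Csf1r (0.52 ± 0.14, adjusted p = 0.0014) and Adgre1 (0.43 ± 0.12, adjusted p = 0.0024). The fit also called Cd5l (0.52 ± 0.15, adjusted p = 0.0027) and Vsig4 (0.26 ± 0.099, adjusted p = 0.024), where 35.5% of 13346 genes were called so and 8.42% the other way. Under median-ratio scaling the genes called split into 2512 and 3242, against 4737 and 1124. Cd5l and Vsig4 stayed under 1 FPKM in every islet library and passed the filter on low values only through liver, so with a pseudocount of 1 their islet effect is held near 0, and their values are the liver effect given again rather than a comparison of tissues. With a pseudocount of 0.1 the calls for Cd5l (0.31, adjusted p = 0.31) and Vsig4 (0.29, adjusted p = 0.15) were lost, and under median-ratio scaling Vsig4 was lost (0.16, adjusted p = 0.17) and Cd163, also under 1 FPKM in every islet library, passed (-0.28, adjusted p = 0.018). C1qa, which rose in both tissues, did not differ past the threshold (0.18 ± 0.13, adjusted p = 0.26).

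Other macrophage genes were described beside the members. Of 16 further genes shared by mononuclear phagocytes, 15 rose in the mean effect of HFD in liver, where 35.8% of all genes did, and Mertk, a receptor for dying cells, did not pass (0.03). The median of the 16 was 0.64, against 0.08 over all genes, and Cd68 (0.93 ± 0.13), a lysosomal protein, and Cd14 (0.79 ± 0.11), the endotoxin co-receptor, were highest. Of 11 other genes known from Kupffer cells, 4 rose, 0 fell and 7 did not pass, with a median of 0.16, and the share that rose was near the 35.8% of all genes. The highest were Hmox1, the haem-degrading enzyme (0.68 ± 0.12), which is not confined to Kupffer cells, and Clec1b, a lectin-like receptor (0.28 ± 0.081). The ligands of Csf1r, Il34 (0.32 ± 0.08, adjusted p = 0.0012) and Csf1 (0.23 ± 0.082, adjusted p = 0.022), were both higher in HFD liver.

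Markers of other cell types were counted in the same comparison, where 35.8% of all genes rose and 6.78% fell. Of 9 monocyte genes, 6 were tested and 5 rose, among them Chil3 (0.63 ± 0.12), a chitinase-like protein, and Plac8 (0.57 ± 0.095). The monocyte genes summed to 6.33 to 10.6 FPKM on CD and 14.3 to 20.4 FPKM on HFD at week 12, 9.86 to 15.6 against 15.8 to 63.0 FPKM at week 20, and 12.8 to 25.0 against 14.8 to 21.5 FPKM at week 24. Of 9 genes of lipid-associated macrophages, 7 rose and 1 fell, with Mmp12, a metalloelastase (1.39 ± 0.15), and Cd63, a tetraspanin (1.22 ± 0.15), highest and Fabp5, a fatty acid binding protein (-0.73 ± 0.20), lowest. Chil3 was at 0.245 ± 0.248 FPKM on CD and 1.24 ± 1.68 FPKM on HFD (mean ± SD). Mmp12 was at 0.181 ± 0.116 and 3.07 ± 3.35 FPKM. Genes so low on CD passed the filter on low values mainly through HFD livers. The counts that rose in these 2 lists are therefore no test of the lists. All 6 stellate cell genes rose, Pdgfrb (0.49 ± 0.062) and Reln (0.36 ± 0.076) among them, as did all 4 fibroblast genes, Col1a1 at 1.36 ± 0.20 and Col3a1 at 1.31 ± 0.19. Of 9 sinusoidal endothelial genes only Lyve1 (0.56 ± 0.11) passed, and of 6 hepatocyte genes 3 fell, including Tat (-0.54 ± 0.15) and Fgb (-0.40 ± 0.12). None of the 2 dendritic cell, 1 B cell, 6 acinar and 2 ductal genes tested in liver passed, no gene of the T and NK cell list was tested, and Ins1 (-1.73 ± 0.56) and Ins2 (-2.05 ± 0.65) fell among 3 beta cell genes, the trace of pancreas named above. How far a change in the number of these cells accounts for the values of the 10 genes was not tested.

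In islets, where 16.6% of all genes rose and 22% fell in the mean effect, 3 of 15 phagocyte genes tested rose and 1 fell, shares that were not compared by a test with those in liver, with Tyrobp at 0.30 ± 0.08, Mpeg1 at 0.17 ± 0.065 and Mertk at -0.10 ± 0.035. The ligands split, with Il34 higher (0.20 ± 0.055, adjusted p = 0.003) and Csf1 lower (-0.26 ± 0.066, adjusted p = 0.0015). Of 7 other Kupffer cell genes, Nr1h3 (0.25 ± 0.046) and Hmox1 (0.20 ± 0.071) rose, and Il18bp (-0.40 ± 0.10) and Fcna (-0.28 ± 0.077) fell. Of 8 lipid-associated macrophage genes 3 rose and 2 fell, between Mmp12 at 0.46 ± 0.068 and Lpl at -0.93 ± 0.11, and none of 3 monocyte genes and 1 dendritic cell gene passed. For the remaining lists, 0 of 5 sinusoidal endothelial genes rose and 3 fell, 1 of 4 stellate cell genes rose and 2 fell, 1 of 4 hepatocyte genes rose and 2 fell, 2 of 5 beta cell genes rose and 2 fell, and 1 of 4 B cell, 2 of 6 acinar, 1 of 3 ductal and 1 of 4 fibroblast genes fell.

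Likeness between genes was taken over the 48 liver libraries from deviations from their group means, by Pearson's r of log2(FPKM + 1) among 10879 genes. The libraries share depth, the share of non-hepatocyte RNA and the mice, so these values are a description. The 5 genes most like Clec4f were Folr2 (0.89), C1qc (0.87), Cfp (0.87), Cd5l (0.86) and Vsig4 (0.86), of which Cd5l and Vsig4 are members. Adgre1 was most like Csf1r (0.93), Cd5l (0.92), Itgal (0.91), Rac2 (0.91) and C1qc (0.88). Mrc1 differed from Clec4f and Adgre1 in its 5 closest genes, F8 (0.85), Adgrl4 (0.84), Ptprb (0.82), Adgrf5 (0.81) and Arhgap31 (0.81). These are known from endothelial cells for the most part. The r of Mrc1 was 0.55 with Clec4f, 0.63 with Adgre1 and 0.26 with Cd163. Low values with other members were not particular to Mrc1, since Marco had 0.47 with Clec4f and 0.59 with Adgre1. Cd163 had an r of 0.59 with Clec4f and 0.36 with Adgre1, below those of Cd5l, Vsig4 and Csf1r with the same genes.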

How the data were processed

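RNA of islets and liver was sequenced by the authors on a BGISEQ-500 after poly(A) selection and random-hexamer priming. The submitters' processing notes name HISAT2 2.0.4, Bowtie2 2.2.5, RSEM 1.1.12, DESeq2 and GRCm38 patch 5, without their roles. The authors deposited FPKM with 2 decimals per library, and those values were used as they are. Their group means, fold changes, p-values, q-values and cluster columns were not used, and 0 columns belonged to other samples. The members and gene lists were chosen with earlier results of these data known. A gene of the list of other Kupffer cell genes is not reported here, and the list's counts and median leave it out. Of all pairs of libraries within a tissue, 0 held identical values. The labels do not name library batches, so week and batch cannot be told apart.

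FPKM were transformed to log2(FPKM + 1) and compared by limma 3.58.1 in R 4.3.3 with a variance trend, robust variances and Benjamini-Hochberg adjustment over all genes tested. Single weeks were fitted on their 8 libraries, and mean, late minus early and age effects on the 48 libraries of a tissue. Tissues were compared on the 48 CD libraries, and the effects of HFD in both tissues on all 96. The filter kept genes reaching 1 FPKM in 4 or more libraries of a fit (3 where 1 library of a week was left out), and an adjusted p under 0.05 was called. Genes named are the 10 members and, of each other list, the 2 highest and 2 lowest among those called in the mean effect, all CSF1R ligands and the 5 genes most like Clec4f, Mrc1 and Adgre1; Mertk and the libraries singled out were named after their values were seen. The same mouse gave a liver and an islet library, whose deviations from their group means had a median r of 0.16 over 9936 genes (-0.08 to 0.30, over 0.1 in 34 of 48 mice). The models were tested on simulated data. Alternatives were a pseudocount of 0.1, no filter, median-ratio scaling, insulin left out of islet totals, no trend, one fit of 12 groups, a mouse block, and each library left out. Figures were drawn with matplotlib in Python. Promoter letters are from RefSeq, GRCm38.p6, where 7 of 10 members matched, and 250 bases before the start were searched.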

Additional observations from a re-analysis of the deposited data

Results flagged for a closer look

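Of 156 groups of 4 libraries of a member gene, 9 held a library far from the other 3 by Dixon's criterion, which chance does in about 1 of 20 groups. The liver of HFD315 at week 12 accounted for 5 of them, with the highest values of Marco (15.97 FPKM), Cd5l (78.2 FPKM), Mrc1 (5.27 FPKM), Adgre1 (10.94 FPKM) and Csf1r (17.11 FPKM) in its group. Marco also had a lowest library apart in CD livers at week 20 (CD501, 1.01 FPKM) and a highest one in HFD livers at week 24 (HFD616, 4.76 FPKM). Cd163 in CD livers at week 20 (CD507, 3.49 FPKM) and C1qa in CD livers at week 16 (CD401, 22.67 FPKM) each had 1 high library.

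By the test of the difference itself, the effect of HFD was larger in liver than in islets for Csf1r (0.52) and Adgre1 (0.43) on the log2(FPKM + 1) scale. The fit also called Cd5l (0.52) and Vsig4 (0.26), which stayed under 1 FPKM in every islet library, so that a pseudocount of 1 holds their islet effect near 0, and both calls were lost with a pseudocount of 0.1. The effect on Cd163 in liver differed between late and early weeks by -0.91.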

How the results depend on the processing

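Counts here are members called. Without the filter on low values, single weeks gave 2 calls in liver in place of 6 and 1 in islets in place of 2. In islets, fits without trend and robust variances gave 1, insulin left out of totals 4, and 1 fit of all groups with median-ratio scaling 4. Calls over all genes moved as well. At islet week 16, 386 of 11691 genes were higher and 602 lower in the main fit. With insulin left out 4799 of 11689 were higher and 424 lower. The 1 fit with median-ratio scaling called 1126 of 12378 higher and 677 lower. The rise to 4 is therefore no result about the members. Of the 8 single-week calls of both tissues, 4 were lost with all 12 groups in one fit. Age on CD in islets gave 1 in place of 0 under median-ratio scaling, and a pseudocount of 0.1 gave 2 in place of 4 for liver minus islets. For age in islets, 2285 of all genes were higher and 2561 lower under median-ratio scaling, against 2098 and 1810. The late minus early call of Cd163 gave 0 without week 4 and 0 without week 24, in place of 1. Of 14 single-gene results fitted without week 24, 9 kept their call, 2 lost it, 2 gained one and 1 turned direction. Without week 4, 11 kept their call, 2 lost it, 0 gained one and 1 turned direction. Fits without a week and the 1 fit with median-ratio scaling were chosen after seeing the data.

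Directions that turned were Mrc1 without week 4 (-0.09) and Timd4 without week 24 (0.06) in the mean effect in liver, Csf1r in islets with insulin left out (0.03), and, for liver against islets, C1qa under median-ratio scaling (0.41) and Csf1r (-0.25) and Adgre1 (-0.21) with insulin left out. Leaving out 1 library gave 4 to 11 calls for single weeks in liver, 1 to 3 in islets, 6 to 7 for the mean effect in liver, 2 in islets, 1 for late minus early in liver, 0 in islets, 5 to 8 for age in liver, 0 to 1 in islets, 10 for liver against islets and 4 to 5 for liver minus islets. The 11 came without HFD411, and the shares of all genes called in fits without 1 library are not given. With the mouse as a replicate block, 10 members were called for liver against islets and 4 for liver minus islets, and none of the 14 results of single genes fitted so changed its call. Depth is unknown, so the counting error of low genes such as Cd163, Marco and Timd4 is not known.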
